A study of Homo sapiens with 26 samples.

Results

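The 10 genes described here encode proteins of the cornified envelope, of squamous epithelium or of its shedding. They are the small proline-rich genes SPRR1A, SPRR1B, SPRR2A, SPRR2D and SPRR3, with IVL, SCEL, S100A2, KLK10 and TGM1. They were taken by name from 62703 gene rows in each table of Panc10.05 and BxPC3 and from 62754 in that of AsPC-1, and each of the 10 has a row in all 3 tables. The names were proposed with earlier results of these data in view, so no count over the 10 genes is evidence about them as a family.

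The 26 RNA-seq libraries come from 3 long-established lines of human pancreatic ductal adenocarcinoma, with HNF4A induced in some and repressed in others. The product of HNF4A is HNF4α, a nuclear receptor made in forms that begin at one promoter or the other, called P1 and P2. For Panc10.05 the isoform P1-a2 was induced with doxycycline at 25 ng/mL and the isoform P2-a8 at 12.5 ng/mL, and the control cells, labelled NC and GFP, received 25 ng/mL. In BxPC3 the P1-a2, P2-a8 and control cells (NC, labelled EV) all received 500 ng/mL. Each of these 6 groups had 2 libraries. AsPC-1 carried CRISPR interference, in which an inactive Cas9 is brought to a promoter to lower transcription. The control guide sgNC had 2 libraries, and the guides against P1 (sgP1E, sgP1J), against P2 (sgP2D, sgP2G) and against both (sgDual2, sgDual3) had 2 each, which gives 4 per target. The labels used here give neither the constructs' promoters nor whether a line was 1 clone, and they do not say whether libraries came from separate cultures, so p-values measure the spread between these libraries only.

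The cornified envelope is the protein shell that replaces the plasma membrane of a keratinocyte as it dies. Involucrin (IVL) forms its early scaffold, SPRR proteins cross-bridge it, sciellin (SCEL) is a further precursor, and transglutaminase 1 (TGM1) is the membrane enzyme that joins them. S100A2 is a calcium-binding protein of basal epithelial cells, and KLK10 is a secreted kallikrein-related peptidase. The normal exocrine pancreas does not cornify, and squamous genes are known from the basal-like class of pancreatic tumours.

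Library totals ran from 26079388 to 50662077 counts, and 3 counts, used here as the floor of detection, amounted to between 0.0592 and 0.115 CPM, the count scaled to the size of the library. HNF4A itself rose from 0.0579 and 0.240 CPM in the Panc10.05 controls to at least 10.7 CPM in all 4 induced libraries, and from 0.464 and 1.08 CPM to at least 9.75 CPM in BxPC3. In AsPC-1 its mean was 213 CPM with sgNC, 129 with sgP1, 86.4 with sgP2 and 7.99 with sgDual, and of these 3 differences only that of sgDual passed the test (log2 fold change −4.73, adjusted p = 6.25e-06, edgeR). Single libraries nevertheless did not overlap between groups. HNF4A was at 206 to 220 CPM with sgNC, 109 to 145 with sgP1 and 76.7 to 93.8 with sgP2. All 5 epithelial markers (EPCAM, KRT8, KRT18, KRT19, CDH1) were at 1 CPM or more in every library. Of 6 basal squamous markers, all had a mean of 1 CPM or more in each BxPC3 group (KRT5 at 4006 to 6396 CPM), 1 in each Panc10.05 group and 1 to 3 in the AsPC-1 groups. Of 4 suprabasal markers, KRT1 was at 0.0627 CPM or less and LORICRIN at 0 in all 3 lines, KRT10 was at 15 to 28.8 CPM in all, and FLG reached 13.4 to 42.5 CPM in BxPC3 and at most 0.145 elsewhere. Among leukocyte markers, PTPRC stayed at 0.136 CPM or less and CD3E at 0.573 or less, while CD68 was at 0.892 to 9.34 CPM and LYZ at 10.4 to 76.4 in AsPC-1. Of 7 fibroblast markers, LUM stood highest, at 130 to 299 CPM in AsPC-1, where THY1 was at 0 and DCN at 0.541 or less.

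SPRR genes are a source of uncertainty in short-read counting because several are near copies. IVL, the SPRR genes and the pseudogene SPRR2C lie within 242 kb of chromosome 1 in GENCODE v29 on GRCh38. From left to right, SPRR1A, SPRR3 and SPRR1B lie on the plus strand, and SPRR2D, SPRR2A, SPRR2B, SPRR2E, SPRR2F, SPRR2C and SPRR2G follow on the minus strand. The coding sequences of SPRR2A, SPRR2D and SPRR2E are shown because their counts in BxPC3 carry the contrast with SPRR1B and SPRR3. All 3 are 216 bases long without the stop codon, read 5′ to 3′ on the coding strand, and capitals mark bases that differ from SPRR2A.
SPRR2A: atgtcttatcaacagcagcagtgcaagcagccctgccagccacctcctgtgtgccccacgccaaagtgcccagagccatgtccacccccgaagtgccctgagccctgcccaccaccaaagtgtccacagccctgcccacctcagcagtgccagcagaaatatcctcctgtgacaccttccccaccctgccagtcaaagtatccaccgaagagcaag
SPRR2D: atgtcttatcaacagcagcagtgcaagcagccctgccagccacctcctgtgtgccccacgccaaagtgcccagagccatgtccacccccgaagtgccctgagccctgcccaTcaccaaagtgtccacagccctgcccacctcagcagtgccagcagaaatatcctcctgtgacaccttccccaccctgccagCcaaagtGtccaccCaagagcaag
SPRR2E: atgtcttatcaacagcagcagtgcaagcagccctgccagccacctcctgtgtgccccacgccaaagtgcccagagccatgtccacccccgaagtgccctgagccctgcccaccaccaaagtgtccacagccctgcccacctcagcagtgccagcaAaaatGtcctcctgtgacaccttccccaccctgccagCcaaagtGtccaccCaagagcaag

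SPRR2D differed from SPRR2A at 4 of 216 coding bases and SPRR2E at 5, while SPRR2B differed at 1. Over 15 pairs of SPRR2 genes the coding identity was 84.9% to 99.5%, and SPRR1A and SPRR1B shared 96.3%. Of all 150-base windows of the annotated SPRR2A transcript, 10.5% also occurred in SPRR2B or SPRR2E, and none of the windows of SPRR2D, SPRR1A, SPRR1B or SPRR3 occurred in another SPRR gene. At 50 bases the share was 32.7% for SPRR2A, 26.8% for SPRR2D, 11.3% for SPRR1A, 4.38% for SPRR1B and 0 for SPRR3. Counts of single SPRR2 genes are therefore uncertain where a fragment fell inside a shared stretch, since how the counting treated such reads is not given in the sources used here. SPRR3 has no such stretch at these lengths.

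The 250 bases before the RefSeq start site (GRCh38.p14) are shown for SPRR1B and SPRR3, which rose with both isoforms in both induced lines, for SPRR2A, which fell with both in BxPC3, and for SCEL. They are read on the gene's own strand, and capitals mark the letters TGANTCA, the core of the AP-1 motif, and TATAAA, searched on both strands. The windows are chr1:153030953-153031202 (plus strand) for SPRR1B, chr1:153001499-153001748 (plus) for SPRR3, chr1:153057513-153057762 (minus) for SPRR2A and chr13:77535456-77535705 (plus) for SCEL.
SPRR1B: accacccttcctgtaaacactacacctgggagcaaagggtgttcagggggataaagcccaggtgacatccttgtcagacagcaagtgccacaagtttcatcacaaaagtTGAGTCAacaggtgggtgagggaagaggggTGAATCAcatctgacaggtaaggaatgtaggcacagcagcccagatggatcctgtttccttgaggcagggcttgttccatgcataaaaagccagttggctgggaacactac
SPRR3: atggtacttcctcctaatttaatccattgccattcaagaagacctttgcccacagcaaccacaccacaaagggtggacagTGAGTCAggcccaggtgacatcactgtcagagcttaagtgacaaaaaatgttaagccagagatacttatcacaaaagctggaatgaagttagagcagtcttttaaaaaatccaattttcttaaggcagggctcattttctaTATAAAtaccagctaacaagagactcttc
SPRR2A: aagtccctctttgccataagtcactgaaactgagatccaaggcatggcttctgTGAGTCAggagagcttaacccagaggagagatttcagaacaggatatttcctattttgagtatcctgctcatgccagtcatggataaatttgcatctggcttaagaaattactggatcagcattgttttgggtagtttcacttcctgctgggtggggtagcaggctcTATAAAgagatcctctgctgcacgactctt
SCEL: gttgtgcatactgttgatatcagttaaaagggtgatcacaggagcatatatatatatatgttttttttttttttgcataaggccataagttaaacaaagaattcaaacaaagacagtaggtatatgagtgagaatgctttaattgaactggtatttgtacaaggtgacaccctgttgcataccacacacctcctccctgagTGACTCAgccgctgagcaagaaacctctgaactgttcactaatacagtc

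Promoter sequence was at hand for 8 of the 10 genes, without SPRR2D and TGM1. In windows of 300 bases that also hold 50 bases after the start, TGANTCA was present in 7 of those 8 genes and in 7.71% of 35116 RefSeq promoters. The 8 genes have 10 windows in all. A gene was counted if any of its windows matched, whereas the shares of all promoters are per window. SPRR1B held 2 matches, 141 and 111 bases before its start site, and KLK10 held none. TATAAA was present in 4 of the 8 genes (IVL, SPRR1A, SPRR3, SPRR2A) and in 11.5% of all promoters. The letters CAAAGTC, part of an HNF4 binding motif, were in none of the 8 and in 3.37% of all. A match is a run of letters and not a measured binding site, and SPRR2A, which fell in BxPC3, holds the same AP-1 letters as SPRR1B and SPRR3, which rose.

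The lines differed in which of the 10 genes they expressed. In BxPC3 all 10 were detected in all 6 libraries, from IVL at 1.75 to 3.20 CPM up to S100A2 at 946 to 1304 CPM. In Panc10.05 SPRR1A and SPRR2D never exceeded 4 counts, SPRR2A reached 13 counts in 1 P1-a2 library and at most 2 in the others, and the other 7 genes entered the test. In AsPC-1 IVL had 0 counts in all 14 libraries, each of which allows a level up to its floor, and none of the 5 SPRR members exceeded 3 counts in a library. SCEL, S100A2, KLK10 and TGM1 entered the test there. Because the 3 tables were scaled separately, levels are set side by side across lines only as rough sizes.

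Per kilobase of annotated exon, the order in BxPC3 controls was S100A2 at 637 CPM per kb, SPRR1B at 195, KLK10 at 58.1, SCEL at 37.4, SPRR2A at 18.8, SPRR2D at 10.0, SPRR3 at 4.34, TGM1 at 2.88 and IVL at 1.08. SPRR1A was left out of this order because its annotated model in GENCODE v29 holds only 270 bases. In Panc10.05 controls S100A2 led at 11.3, followed by KLK10 at 4.59, SCEL at 3.77 and TGM1 at 1.37. In AsPC-1 with sgNC it was KLK10 that led, at 51.5, with S100A2 at 5.65. KLK10 was thus near the same level per length in BxPC3 and AsPC-1 controls, and S100A2 was not.

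**Figure D1:**
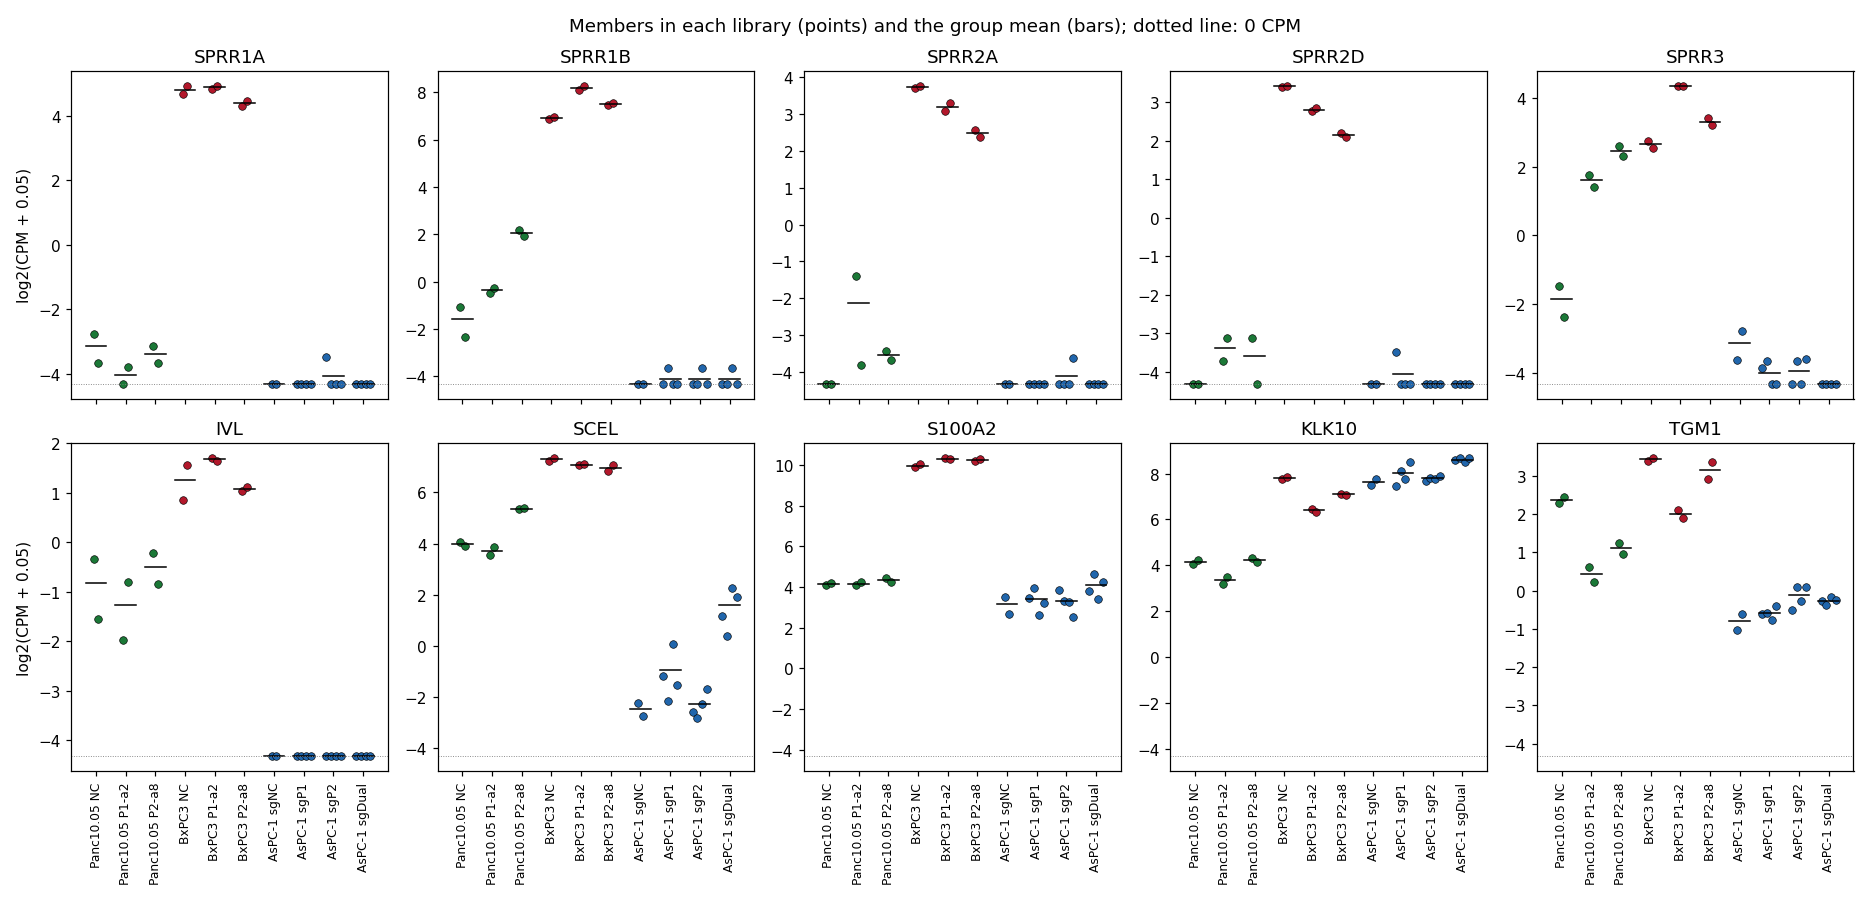
Level of each of the 10 genes in every library, as log2 of CPM plus a small constant, grouped by line and condition. Bars mark group means and the dotted line marks the place of a library without counts. S100A2 and SPRR1B are higher in BxPC3 than in the other lines, KLK10 is high in BxPC3 and AsPC-1, and the SPRR genes and IVL lie at the bottom in AsPC-1.

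In Panc10.05, induction of either isoform raised SPRR1B and SPRR3 and lowered TGM1, while SCEL rose with P2-a8 and was lower with P1-a2. With P1-a2, 2 of the 7 genes tested rose, 3 fell and 2 did not pass, where 62.0% of all 17247 genes tested were called, 31.5% higher and 30.5% lower (adjusted p under 0.05 by Benjamini-Hochberg, edgeR's quasi-likelihood test). With P2-a8, 3 rose, 1 fell and 3 did not pass, against 46.2% of all genes (23.7% higher, 22.5% lower). Both shares among the members are near or not far above those backgrounds. The median log2 fold change of the 7 was −0.28 with P1-a2 and 0.34 with P2-a8, beside 0.02 and 0.00 over all genes. The sum of the 6 basal squamous markers, mostly KRT17, also moved with induction in this line. It was 9.73 to 9.82 CPM in controls, 1.13 to 1.65 with P1-a2 and 3.33 to 4.11 with P2-a8, and its part in the members' changes was not tested.

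SPRR3 was at 0.312 and 0.145 CPM in the Panc10.05 controls, at 3.34 and 2.63 with P1-a2 and at 6.02 and 4.90 with P2-a8. Each induced library was thus above both controls, and both P2-a8 libraries were above both P1-a2 libraries. On the log2 scale SPRR3 rose by 3.64 with P1-a2 (SE 0.30, adjusted p = 7.13e-14, edgeR) and by 4.52 with P2-a8 (SE 0.28, adjusted p = 2.31e-17). The controls rest on 18 counts in all, and from summed counts the ratio was 12.5 with P1-a2 (exact Poisson 95% interval 7.75 to 21.4) and 23.4 with P2-a8 (14.7 to 39.9), intervals that cover counting error only. Without control replicate 1 the log2 rises were 4.32 and 5.22, so their size depends on that library.

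SPRR1B followed the same order with a wider gap between the isoforms. It was at 0.432 and 0.145 CPM in controls, 0.667 and 0.782 with P1-a2 and 4.53 and 3.74 with P2-a8. The change with P2-a8 was 3.78 (log2, SE 0.29, adjusted p = 3.39e-14, edgeR). That with P1-a2 was 1.27 (SE 0.39, adjusted p = 0.00410) and was not past the threshold without control replicate 2 (0.75, adjusted p = 0.120). Without control replicate 1 the changes were 2.29 with P1-a2 and 4.82 with P2-a8. From 23 control counts in all, the ratios were 2.42 (exact Poisson 95% interval 1.48 to 4.09) and 13.9 (9.10 to 22.2).

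SCEL, at 16.7 and 15.1 CPM in controls, reached 40.7 and 41.4 with P2-a8 and stood at 11.7 and 14.3 with P1-a2. The rise with P2-a8 was 1.37 on the log2 scale (SE 0.09, adjusted p = 1.79e-16, edgeR). The fall with P1-a2 was −0.28 (SE 0.10, adjusted p = 0.00987) and was lost without P1-a2 replicate 1 (−0.15, adjusted p = 0.273) or without control replicate 1 (−0.22, adjusted p = 0.108). An antisense gene, SCEL-AS1, overlaps SCEL, and the strand setting of the counting is not given in the sources used here.

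TGM1, the cross-linking enzyme, went the other way from the SPRR genes. It was at 4.87 and 5.39 CPM in controls, 1.49 and 1.11 with P1-a2 and 2.33 and 1.89 with P2-a8, with no overlap between any of the groups. By edgeR its log2 change was −1.99 with P1-a2 (SE 0.20, adjusted p = 1.02e-11) and −1.27 with P2-a8 (SE 0.18, adjusted p = 2.19e-07). KLK10 was lower with P1-a2 only: it was at 16.6 and 18.8 CPM in controls, 8.90 and 11.3 with P1-a2 (log2 fold change −0.80, adjusted p = 4.05e-08, edgeR) and 19.8 and 17.5 with P2-a8 (0.08, adjusted p = 0.545). S100A2 stayed between 17.1 and 21.5 CPM in all 6 libraries, with adjusted p of 0.867 and 0.0858. IVL, at 0.205 to 0.811 CPM, passed neither test.

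Set against each other in Panc10.05, P1-a2 gave lower levels than P2-a8 for 5 of the 7 genes (SPRR1B, SPRR3, SCEL, KLK10, TGM1) and higher levels for none. Over all genes 46.9% were called in that comparison (22.2% higher, 24.7% lower). The differences, P1-a2 minus P2-a8 on the log2 scale, were −2.51 for SPRR1B, −0.89 for SPRR3, −1.65 for SCEL, −0.88 for KLK10 and −0.72 for TGM1. TGM1 (adjusted p = 0.00601, edgeR) was not past the threshold without P2-a8 replicate 1 (adjusted p = 0.105) or without P1-a2 replicate 2 (adjusted p = 0.118). Isoform and doxycycline dose change together here, and HNF4A was at 37.6 CPM in both P2-a8 libraries against 10.7 and 13 with P1-a2, so isoform, dose and HNF4A level cannot be told apart.

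In BxPC3, where these genes were already expressed, SPRR1B and SPRR3 again rose with either isoform, and SPRR2A and SPRR2D fell. With P1-a2, 3 of 10 genes rose, 4 fell and 3 did not pass, where 32.0% of all 17635 genes tested were called (17.1% higher, 14.9% lower). With P2-a8, 3 rose, 5 fell and 2 did not pass, where 6.99% of all genes were called (4.30% higher, 2.69% lower). The median log2 fold change of the 10 was −0.07 and −0.31, against −0.01 and 0.01 over all genes, since rises and falls lie side by side in the set. The summed basal squamous markers were at 11808 to 12102 CPM in controls, 9589 to 10620 with P1-a2 and 13155 to 13443 with P2-a8, and their part in these changes was not tested. SPRR1B, SPRR3 and S100A2 rose with both isoforms, and SPRR2A, SPRR2D and KLK10 fell with both.

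**Figure D2:**
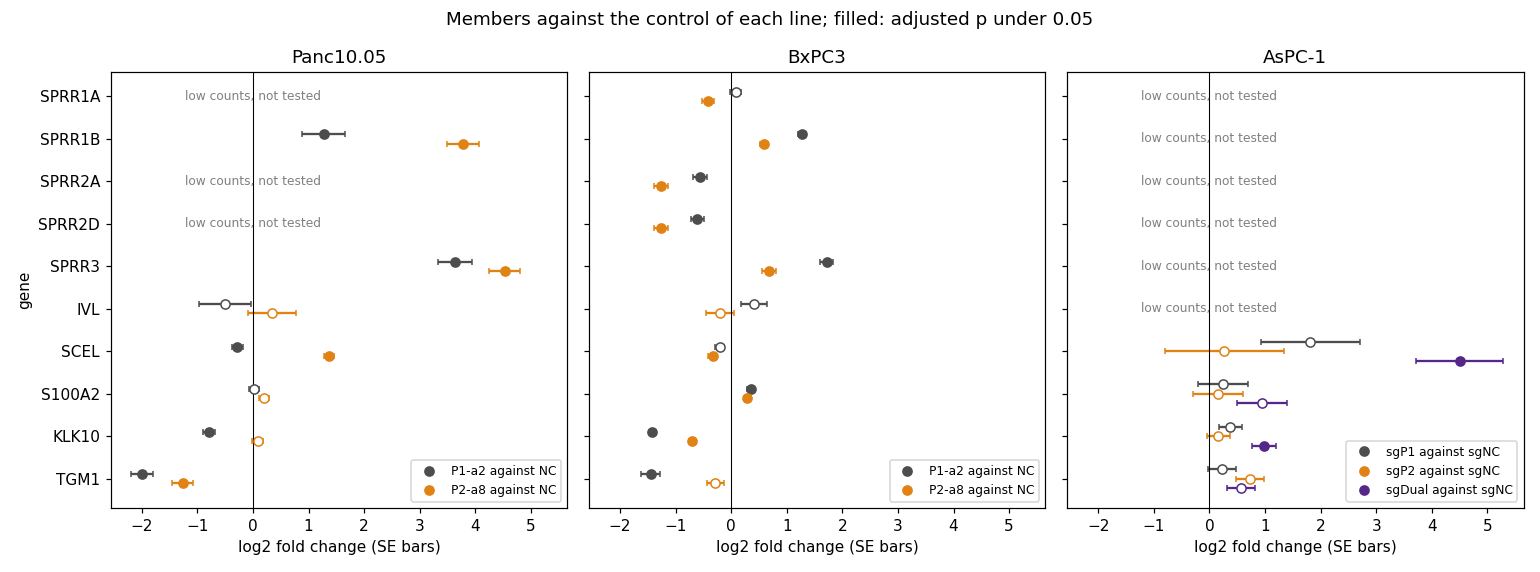
Log2 fold change of each tested gene in the 3 lines, with bars of 1 SE, filled where the adjusted p is under 0.05. SPRR1B and SPRR3 lie to the right of 0 for both isoforms in Panc10.05 and BxPC3, and TGM1 lies to the left in these lines.

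SPRR1B was at 119 and 123 CPM in the BxPC3 controls, 274 and 311 with P1-a2 and 177 and 187 with P2-a8. The 3 groups did not overlap. By edgeR its log2 rise was 1.27 with P1-a2 (SE 0.07, adjusted p = 2.25e-07) and 0.59 with P2-a8 (SE 0.07, adjusted p = 0.00033). SPRR3 kept the same order at a lower level, with 6.73 and 5.79 CPM in controls, 20.4 in both P1-a2 libraries and 10.6 and 9.18 with P2-a8. SPRR3 changed by 1.71 with P1-a2 (SE 0.12, adjusted p = 1.81e-06) and by 0.67 with P2-a8 (SE 0.13, adjusted p = 0.00806), the latter lost without P2-a8 replicate 1 (0.54, adjusted p = 0.0587) or without control replicate 2 (0.55, adjusted p = 0.115).

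SPRR2A was at 13.1 and 13.6 CPM in controls, 8.37 and 9.72 with P1-a2 and 5.92 and 5.17 with P2-a8. SPRR2D was at 10.5 and 10.7 in controls, 6.77 and 7.13 with P1-a2 and 4.57 and 4.25 with P2-a8. Both genes were lowest with P2-a8, with no overlap between groups. By edgeR SPRR2A changed on the log2 scale by −0.56 with P1-a2 (SE 0.12, adjusted p = 0.00525) and by −1.26 with P2-a8 (SE 0.13, adjusted p = 0.000142). SPRR2D changed by −0.61 with P1-a2 (SE 0.12, adjusted p = 0.00300) and by −1.26 with P2-a8 (SE 0.13, adjusted p = 0.000138). A shared read given to the wrong SPRR2 gene moves counts within the SPRR2 group and not between SPRR2A and SPRR3, which share no window.

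The remaining SPRR2 copies went down as well. SPRR2E was at 6.69 and 8.05 CPM in controls, 2.76 and 1.32 with P1-a2 and 1.63 and 1.90 with P2-a8 (log2 fold changes −1.88, adjusted p = 0.000517, and −2.07, adjusted p = 0.00154, edgeR). SPRR2F changed by −2.30 and −1.95 and the pseudogene SPRR2C by −1.22 and −1.39, all past the threshold. SPRR2B and SPRR2G had at most 3 counts in a library and were not tested. The 5 tested SPRR2 rows, all on the minus-strand side of SPRR1B, thus fell with both isoforms, while SPRR1B and SPRR3 on the plus-strand side rose. The changes do not divide by strand, since SPRR1A and IVL, also on the plus strand, did not rise past the threshold. SPRR1A was lower with P2-a8 (−0.42, adjusted p = 0.0311, edgeR).

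**Figure D3:**
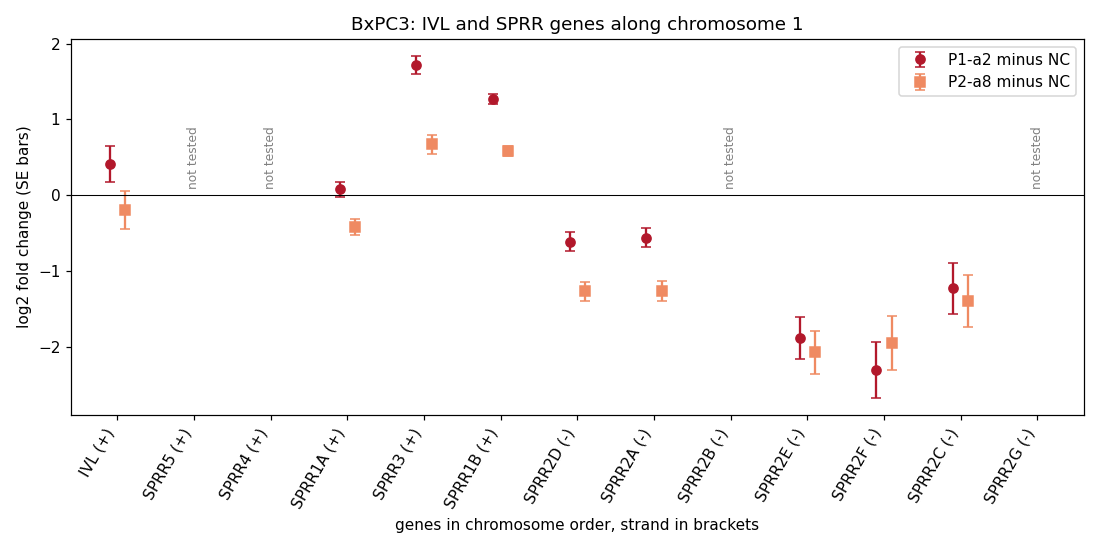
Log2 fold change in BxPC3 for the 13 genes of the IVL and SPRR cluster, drawn in their order along chromosome 1, with bars of 1 SE. Points lie above 0 at SPRR3 and SPRR1B and below 0 from SPRR2D to SPRR2C, for P1-a2 and for P2-a8. IVL and SPRR1A, on the plus strand as well, did not rise past the threshold.

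A share within each library was taken with SPRR2A, SPRR2B, SPRR2D, SPRR2E, SPRR2F and SPRR2G summed. It does not depend on which of these a read was given to. The pseudogene SPRR2C, at 18 to 85 counts a library, was left out. Reads given to SPRR2C, or shared reads that were not counted, would change the share. SPRR2 genes made up 17.5% (Wilson 95% interval 16.5 to 18.6) and 17.8% (16.9 to 18.7) of the SPRR1, SPRR2 and SPRR3 counts in the 2 BxPC3 controls, intervals that cover counting error only and not the wider spread between libraries. The share was 5.40% (4.99 to 5.84) and 4.86% (4.52 to 5.23) with P1-a2, and 5.68% (5.19 to 6.22) and 5.2% (4.72 to 5.73) with P2-a8. All 4 induced libraries were below both controls by more than the replicates of a group differed, with no test, and the isoforms gave like shares although SPRR1B and SPRR2A levels differed between them. Of the 4 suprabasal markers, FLG was lower after induction too, at 33.5 to 42.5 CPM in controls, 13.4 to 17.3 with P1-a2 and 13.6 to 21.4 with P2-a8. KRT10 stayed at 22.5 to 25.9 CPM in all 6 libraries, with KRT1 and LORICRIN at or near 0. The sum of the 4 was 58.7 to 66.8 CPM in controls, 38.2 to 43.3 with P1-a2 and 38.3 to 43.9 with P2-a8, and its part in the SPRR2 result was not tested.

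**Figure D4:**
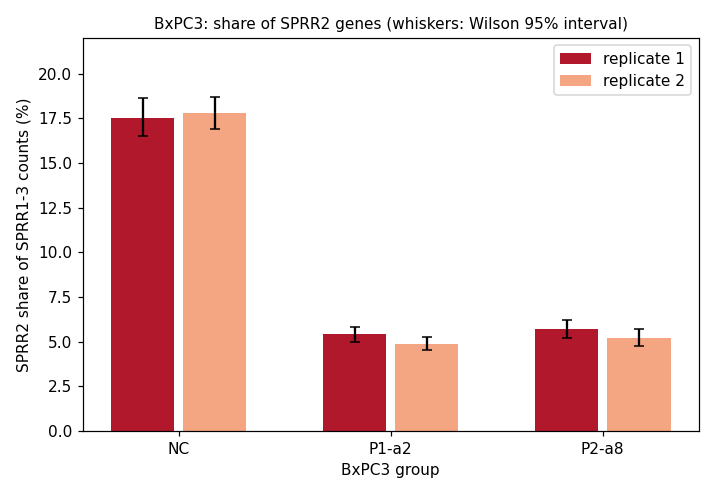
SPRR2 share of all SPRR1, SPRR2 and SPRR3 counts, without the pseudogene SPRR2C, in each BxPC3 library, in percent, with Wilson 95% intervals. The controls lie at 17.5% and 17.8% and all 4 induced libraries between 4.86% and 5.68%.

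SPRR1A, the neighbour of SPRR3 and near copy of SPRR1B, did not follow SPRR1B. It was at 25.7 and 30.3 CPM in controls, 28.6 and 30.7 with P1-a2 (0.08, adjusted p = 0.590) and 19.9 and 22.2 with P2-a8 (−0.42, SE 0.10, adjusted p = 0.0311, edgeR). The call with P2-a8 was lost without P2-a8 replicate 1 (−0.36, adjusted p = 0.130) or without control replicate 2 (−0.30, adjusted p = 0.268). SPRR1A groups overlapped with P1-a2 and did not with P2-a8. Of the 50-base windows of SPRR1A 11.3% also occurred in SPRR1B, and how such reads were counted is not given in the sources used here. IVL was at 1.75 and 2.89 CPM in controls, at 3.20 and 3.08 with P1-a2 and at 2.0 and 2.11 with P2-a8, with adjusted p of 0.225 and 0.732. The 2 IVL controls lay on both sides of the P2-a8 libraries.

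SCEL, high in BxPC3, was slightly lower after induction, with 151 and 163 CPM in controls, 133 and 139 with P1-a2 and 115 and 134 with P2-a8. The change with P1-a2 was −0.21 (SE 0.08, adjusted p = 0.0530, edgeR) and passed with the replicate number as a block (adjusted p = 0.00126). That with P2-a8 was −0.33 (SE 0.08, adjusted p = 0.0215) and was lost without P2-a8 replicate 1 (−0.24, adjusted p = 0.108) or without control replicate 2 (−0.29, adjusted p = 0.155). S100A2 was at 946 and 1051 CPM in controls, 1304 and 1241 with P1-a2 and 1191 and 1251 with P2-a8. It changed by 0.35 with P1-a2 (SE 0.06, adjusted p = 0.00104) and by 0.29 with P2-a8 (SE 0.06, adjusted p = 0.0139), the latter lost without control replicate 1 (0.20, adjusted p = 0.187) or without P2-a8 replicate 2 (0.24, adjusted p = 0.0986).

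KLK10 fell in a graded way, from 217 and 231 CPM in controls to 140 and 135 with P2-a8 and 87.7 and 80.0 with P1-a2. By edgeR the log2 change of KLK10 was −0.70 with P2-a8 (SE 0.06, adjusted p = 4.74e-05) and −1.42 with P1-a2 (SE 0.06, adjusted p = 7.41e-08). TGM1 was at 10.5 and 11 CPM in controls, 4.23 and 3.67 with P1-a2 (−1.45, SE 0.17, adjusted p = 7.43e-05) and 7.43 and 10.3 with P2-a8 (−0.28, adjusted p = 0.348). Only the P1-a2 libraries of TGM1 were clear of the others. For KLK10, as for SPRR1B, the larger change came with P1-a2 in BxPC3.

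Set against each other in BxPC3, at 1 dose of doxycycline and with HNF4A at 9.75 and 11.6 CPM against 12.6 and 14.2, P1-a2 gave more than P2-a8 of all 5 SPRR members. The differences were 0.50 for SPRR1A, 0.68 for SPRR1B, 0.71 for SPRR2A, 0.66 for SPRR2D and 1.04 for SPRR3 (log2, adjusted p from 7.27e-05 to 0.00499, edgeR). KLK10 was lower with P1-a2 by −0.72 (adjusted p = 3.88e-05) and TGM1 by −1.16 (adjusted p = 0.000819). That makes 7 of 10 genes called, 5 higher and 2 lower, where 22.5% of all genes were called (11.6% higher, 10.8% lower). IVL (0.61, adjusted p = 0.0961) and SCEL (0.12, adjusted p = 0.271) did not pass, but did with the replicate block (adjusted p = 0.0429 and 0.0446). For SPRR1B and SPRR3 these differences stand beside −2.51 and −0.89 in Panc10.05, where the doses of the isoforms differ. The difference between the lines in this comparison was not tested.

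The difference in response between the lines was tested in a fit of both lines together. It is given for the 7 genes that entered the test in each line alone. The shares of all genes are over the 19372 genes of that joint fit. SPRR1A, SPRR2A and SPRR2D also entered it, although their counts were too low for the test in Panc10.05 alone. Of these, SPRR2A and SPRR2D passed with P1-a2 and none passed with P2-a8. With P2-a8, 5 of 7 differed where 23.5% of all genes did (11.5% higher, 11.9% lower): the change in Panc10.05 exceeded that in BxPC3 by 3.19 for SPRR1B, 3.85 for SPRR3, 1.70 for SCEL and 0.79 for KLK10, and it was lower by −0.98 for TGM1 (log2, adjusted p from 3.64e-09 to 0.00485, edgeR). With P1-a2, 3 of 7 differed where 36.4% of all genes did (16.3% higher, 20.1% lower), namely SPRR3 by 1.93, KLK10 by 0.63 and S100A2 by −0.32. The control means were 0.288 CPM for SPRR1B and 0.228 for SPRR3 in Panc10.05, and 121 and 6.26 in BxPC3. Line, dose, control construct and sequencing project change together, so their parts cannot be told apart.

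In AsPC-1, repression of both isoforms raised SCEL and KLK10. With P1 or P2 repressed alone none of the 4 genes tested passed the threshold when the guides of a target were pooled. Such a pooled test can miss a change given by 1 guide. The guides against P1 differed in 14.5% of all genes, and without sgP1E KLK10 passed for sgP1 (0.68, adjusted p = 0.0116, edgeR). With sgP1 no gene of the 4 passed by edgeR or by DESeq2, and none had an unadjusted p under 0.05, where 0.265% of all 16992 genes tested were called. With sgP2 none passed by either tool and 1 had an unadjusted p under 0.05 (TGM1, 0.72, adjusted p = 0.132), where 3.42% of all genes were called (1.66% higher, 1.76% lower). With sgDual 2 of 4 rose and none fell, where 35.6% of all genes were called (17.8% in each direction). The median log2 fold change of the 4 with sgDual was 0.96, beside 0.00 over all genes. LYZ and LUM moved with sgDual as well: LYZ was at 36.2 to 44.2 CPM with sgNC and 51.6 to 76.4 with sgDual, and LUM at 164 to 178 and 278 to 299. The 7 fibroblast markers summed to 165 to 179 CPM with sgNC and 279 to 301 with sgDual. PTPRC, CD3E and THY1 were at or near 0. The 6 basal squamous markers, mostly DSG3, summed to 82.7 to 83.4 CPM with sgNC and 89.7 to 121 with sgDual. Their sum was 41.8 to 77.0 CPM with sgP1 and 17.5 to 38.2 with sgP2. Leukocyte markers, mostly LYZ, summed to 39.7 to 47.8 CPM with sgNC, 15.3 to 38.4 with sgP1 and 15.9 to 19.7 with sgP2. The part of these markers in the members' values was not tested.

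SCEL lay near the floor in AsPC-1 controls, at 0.158 and 0.0963 CPM, or 5 and 3 counts. With sgDual2 it was at 2.21 and 4.71 CPM and with sgDual3 at 1.25 and 3.67, so all 4 dual libraries were above every other library of the line. From 417 counts against 8, the ratio was 23.4 (exact Poisson 95% interval 11.8 to 54.6), and edgeR's log2 estimate was 4.5 (SE 0.78, adjusted p = 0.000609). Within replicate 1 the dual libraries averaged 10.9 times sgNC and within replicate 2 43.5 times. Against sgP1 the difference was 2.68 (adjusted p = 0.000538), or 3.31 without sgP1E replicate 2 and 3.68 without sgP1E, and against sgP2 4.23 (adjusted p = 4.39e-05).

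With sgP1 alone SCEL was at 0.390 and 0.993 CPM for sgP1E and 0.175 and 0.290 for sgP1J, and with sgP2 at 0.0899 to 0.255. The sgP1 libraries were above both controls, but the difference did not pass (1.82, SE 0.89, adjusted p = 0.595). Both guides against P1 rest on 6 to 33 counts a library. Between sgP1E and sgP1J the difference in SCEL was 1.48 (adjusted p = 0.291), and 1.52 with the replicate block (adjusted p = 0.00850).

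KLK10 was at 180 and 217 CPM with sgNC, 382 and 363 with sgDual2 and 411 and 406 with sgDual3. The 4 dual libraries did not overlap with the controls, and the guides sgDual2 and sgDual3 gave similar levels. Within replicate 1 the dual libraries averaged 2.20 times sgNC and within replicate 2 1.77 times. By edgeR the log2 rise was 0.98 (SE 0.22, adjusted p = 0.00344), and it missed the threshold without sgNC replicate 1 (0.84, adjusted p = 0.0683). With sgP2 KLK10 stayed at 207 to 238 CPM.

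The guides against P1 differed in KLK10. It was at 174 and 218 CPM with sgP1E and at 275 and 364 with sgP1J, a log2 difference of −0.71 (SE 0.13, adjusted p = 0.00346, edgeR) where 14.5% of all genes differed between these guides (7.82% higher, 6.70% lower). Without sgP1E, KLK10 was higher with sgP1 than with sgNC (0.68, adjusted p = 0.0116), and without sgP1J the difference was −0.02 (adjusted p = 0.942). One sgP1J library overlapped the range of the dual libraries, and the difference between sgDual and sgP1 was 0.60 (adjusted p = 0.0129), lost without sgDual3 (0.53, adjusted p = 0.0961). Against sgP2 it was 0.81 (adjusted p = 0.00150). Against sgP1 2 of the 4 members were higher, SCEL and KLK10, where 38.3% of all genes were called (18.6% higher, 19.7% lower). Against sgP2 the same 2 were higher, where 46.4% were called (22.8% higher, 23.5% lower).

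S100A2 in AsPC-1 varied with the replicate number as well as with the guide. In replicates 1 and 2 it was at 11.4 and 6.29 CPM with sgNC, 14 and 10.6 with sgDual2 and 25.0 and 18.9 with sgDual3, and replicate 1 was above replicate 2 for 7 of 7 guides (1.32-fold to 1.82-fold). The dual difference was 0.95 (SE 0.45, adjusted p = 0.125, edgeR), and with the replicate block 0.99 (adjusted p = 0.0358). With the block S100A2 was also higher with sgDual than with sgP1 (0.75, adjusted p = 0.0401) or sgP2 (0.82, adjusted p = 0.0231). Guides of 1 target differed too with the block: sgDual2 was below sgDual3 by −0.84 (adjusted p = 8.63e-05), sgP1E below sgP1J by −0.52 (adjusted p = 0.00272), and sgP2D above sgP2G by 0.63 (adjusted p = 0.00414). Without the block none of these 3 passed among the genes kept by the filter on low counts, and all 3 passed without the filter (adjusted p = 1.33e-07, 0.00505 and 0.00350).

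**Figure D5:**
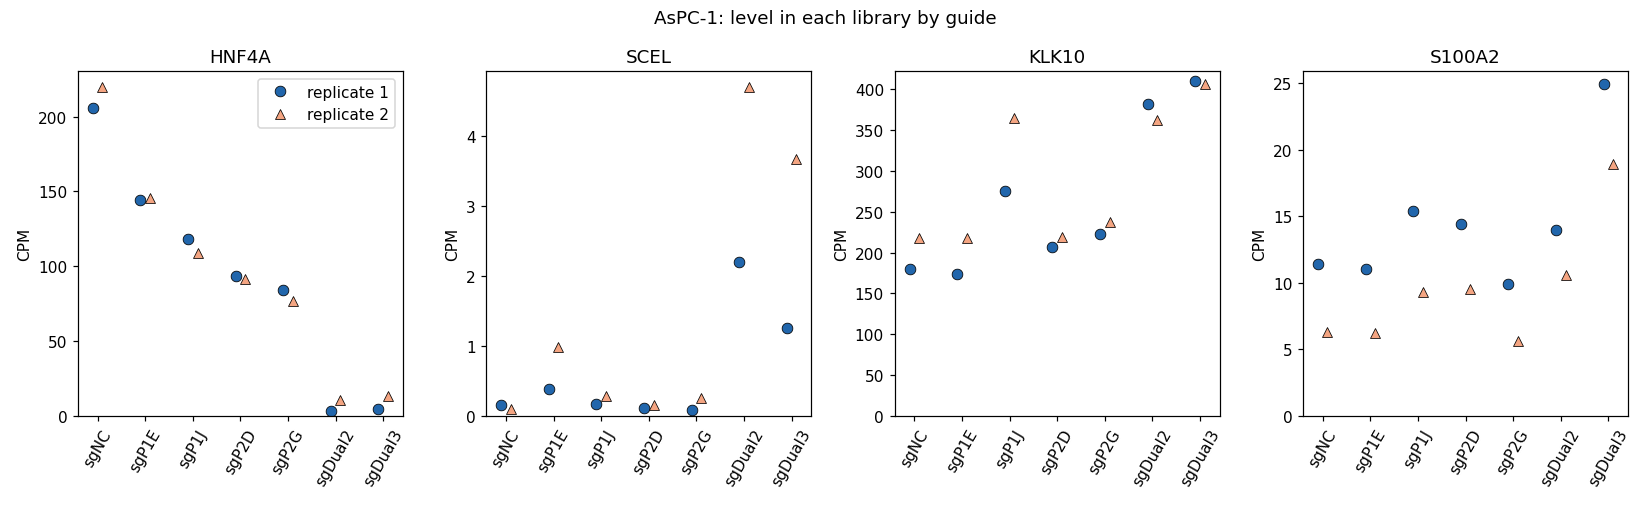
CPM of the targeted gene HNF4A and of SCEL, KLK10 and S100A2 in the 14 AsPC-1 libraries by guide, with the replicate number shown by the symbol. SCEL and KLK10 stand highest with sgDual2 and sgDual3, and for S100A2 replicate 1 lies above replicate 2 for each guide.

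TGM1 was low in AsPC-1, at 0.443 and 0.610 CPM with sgNC and 0.542 to 1.02 in the other 12 libraries. Its change with sgDual was 0.56 (adjusted p = 0.0946, edgeR). It rests on 14 to 34 counts a library. Of the comparisons left, sgP2 against sgP1 called none of the 4 genes by edgeR or DESeq2, with 2 (SCEL and TGM1) at an unadjusted p under 0.05, where 4.30% of all genes were called (2.17% higher, 2.13% lower). Between sgP2D and sgP2G, and between sgDual2 and sgDual3, none of the 4 passed by edgeR, or had an unadjusted p under 0.05, in the fit with the filter and without the replicate block, where 1.69% (0.647% higher, 1.05% lower) and 0.883% (0.418% higher, 0.465% lower) of all genes were called.

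Read across the lines, KLK10 was lower in BxPC3 with either isoform induced and in Panc10.05 with P1-a2, and higher in AsPC-1 after both were repressed. A gene on the opposite strand, AC011473.2, overlaps KLK10, and the strand setting of the counting is not given in the sources used here. SCEL was higher in AsPC-1 after repression, but in Panc10.05 it was higher after induction of P2-a8. TGM1 was lower in Panc10.05 with both isoforms and in BxPC3 with P1-a2, and did not pass in AsPC-1. The lines were not tested against each other across induction and repression, which are different manipulations.

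Other genes of the envelope were read from a list of 54 (53 found), which holds further SPRR and LCE genes, desmosomal proteins and plakins. The shares of all genes called, given above, are repeated beside the counts. In Panc10.05, of 12 tested, 3 rose and 3 fell with P1-a2 (all genes 31.5% higher, 30.5% lower) and 7 rose and 2 fell with P2-a8 (23.7% and 22.5%). Periplakin, PPL, which anchors the envelope to keratin, had the largest fall with P1-a2 among genes named by a fixed rule (−1.54, from 167 to 57.3 CPM). In BxPC3, of 27 tested, 4 rose and 10 fell with P1-a2 (17.1% and 14.9%) and 2 rose and 3 fell with P2-a8 (4.30% and 2.69%). The keratinocyte gene SBSN (suprabasin) rose from a mean of 0.192 CPM to 6.48 and 2.99, and LCE1C, a late envelope gene at 0.10 CPM in controls, near the floor, reached 9.74 and 2.21 CPM. In AsPC-1, of 16 tested, none passed with sgP1 by edgeR, 2 rose and 4 fell with sgP2 (1.66% and 1.76%), and 5 rose and 1 fell with sgDual (17.8% in each direction). PPL rose there with sgP2 (1.45) and with sgDual (2.93, from 10.2 to 77.4 CPM). The fall of PPL given above is that with P1-a2 in Panc10.05, and its values in the other induced comparisons are not given here.

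Among 24 epidermal proteases, inhibitors and serpins, other kallikreins went both ways. In BxPC3 KLK7, which cleaves the links between corneocytes, rose from 0.193 CPM to 16 with P1-a2 (6.38, adjusted p = 1.52e-08, edgeR) and 6.36 with P2-a8. KLK6 rose as well, from 0.454 CPM to 10.4 and 6.31, while KLK11 (−1.37 and −0.40) and KLK13 (−1.64 and −0.77) fell with both isoforms, as KLK10 did. In Panc10.05 KLK6 rose by 2.06 with P1-a2 and 3.25 with P2-a8, and KLK5 changed by −1.0 with P1-a2 and 1.0 with P2-a8. In the list, 5 rose and 7 fell of 13 with P1-a2 in Panc10.05 (all genes 31.5% and 30.5%), and 7 rose and none fell with P2-a8 (23.7% and 22.5%). In BxPC3 6 rose and 8 fell of 20 with P1-a2 (17.1% and 14.9%), and 3 rose and 7 fell with P2-a8 (4.30% and 2.69%). In AsPC-1 3 of 11 rose and 2 fell with sgDual (17.8% each), none rose and 2 fell with sgP2 (1.66% and 1.76%), and none passed with sgP1 by edgeR.

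Of 16 other S100 genes, 7 of 10 tested rose with P1-a2 in Panc10.05 and 9 of 10 with P2-a8, where 31.5% and 23.7% of all genes were higher, and none fell, while S100A2 itself did not pass. S100A9, a subunit of calprotectin, rose from 0.118 CPM, near the floor, to 1.95 with P1-a2. With P2-a8 in BxPC3 it fell from 19.3 to 11.6 CPM (−0.74, adjusted p = 0.00514, edgeR). In BxPC3 4 of 11 rose and 3 fell with P1-a2 (all genes 17.1% and 14.9%), and 2 rose and 3 fell with P2-a8 (4.30% and 2.69%), with S100P down by −1.25 and −0.68. S100P rose in AsPC-1 with sgDual (2.95), where 4 of 11 rose and 3 fell (17.8% each).

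Of 30 regulators of squamous differentiation, including AP-1 subunits, 14 rose and 8 fell of 26 tested with P1-a2 in Panc10.05 (all genes 31.5% and 30.5%) and 18 rose and 5 fell with P2-a8 (23.7% and 22.5%). JUN, an AP-1 subunit, rose by 1.32 with P1-a2, and GRHL3, a regulator of barrier genes, by 1.5 with P2-a8. In BxPC3, of 29 tested, 4 rose and 10 fell with P1-a2 (17.1% and 14.9%) and 1 rose and 4 fell with P2-a8 (4.30% and 2.69%). MAF, known to promote keratinocyte differentiation, rose by 2.12 and 1.96, and the AP-1 subunit FOSL1 fell by 0.73 on the log2 scale with P2-a8. In AsPC-1 8 of 26 rose and 2 fell with sgDual (17.8% each), with FOSB at 1.72 and PRDM1 at 1.89 on the log2 scale. No list was tested as a set.

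The genes most like each member over the 26 libraries were read from log2 CPM centred on each line's mean, among 11589 genes expressed in all 3 lines. For SCEL these were PDLIM5, PBXIP1 and CEPT1 (Pearson r 0.93 each). For KLK10 they were ST3GAL4 (0.92), ANKRD10 and GALNT12 (0.90 each), for TGM1 RSBN1, C12orf57 and SPTLC3 (0.86 each), and for S100A2 P4HA2 (0.81), CCDC91 (0.79) and SLC22A4 (0.77). These are the highest of many correlations, over libraries that share controls and replicate numbers, and are given as a description.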

How the data were processed

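The deposited files are 1 table per line of raw counts per Ensembl gene, whole numbers that the authors did not normalize, per the values. Per the submitters' processing notes, cutadapt 1.16, STAR 2.7.9a, featureCounts 1.6.3, DESeq2 1.36.0 and GRCh38 were used. Their roles, the annotation, the strand setting and the handling of multi-mapped reads are not given in the sources used here. Per the labels' protocols, poly(A) RNA was sequenced as read pairs of 150 bases from directional libraries, which were grouped by title.

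Symbols were matched for 99.9% of identifiers. In each line, genes were kept by filterByExpr, given edgeR's TMM scaling factors and tested over all groups with edgeR 4.0.16 (R 4.3.3, limma 3.58.1) by glmQLFit (robust) and glmQLFTest, with Benjamini-Hochberg adjustment over all genes tested and a threshold of 0.05. SE is the absolute log2 fold change divided by the square root of F. Levels are CPM on TMM-scaled library sizes, and the floor of 3 counts is given on the library total. The lines were compared by an interaction contrast in 12 libraries, and guides in a fit of 7 guide groups. The tests were checked on simulated counts. Alternatives were DESeq2 1.42.0, no filter, no TMM, only both groups fitted, a replicate block, and leaving out each library or guide. Replicate libraries differed by more than sampling noise (chi-square over degrees of freedom 5.08 to 24.1).

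Same-numbered libraries deviated together in BxPC3 (r 0.314 to 0.528 over 3 pairs of groups) and AsPC-1 (0.256 to 0.751 over 21 pairs of guides), and not in Panc10.05 (−0.0476 to 0.0451). The titles' numbers were therefore read as pairing libraries in the first 2 lines. The main fits did not use this pairing. Adjusted p-values and shares of all genes called leave it out except where the replicate block is named.

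The members and the 4 lists were chosen with earlier results of these data known. Named are each member, the other SPRR copies, HNF4A, up to 3 called list genes per comparison with a mean of at least 1 CPM, no overlap between groups and the largest change, and the 3 genes most like each member. Not every gene so named is printed, KLK6, KLK7 and PPL were picked among them after their values were seen, and KLK5, KLK11 and KLK13 were added then. One leukocyte marker is not reported here.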

Additional observations from a re-analysis of the deposited data

Results flagged for a closer look

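The results below are differences between Panc10.05 and BxPC3 in the response of a gene to the same isoform, tested as an interaction in edgeR with Benjamini-Hochberg adjustment. They cover the 7 genes that entered the test in each line alone. The values are the change in Panc10.05 minus that in BxPC3, on the log2 scale. With P2-a8 they were 3.19 for SPRR1B (adjusted p = 3.95e-08), 3.85 for SPRR3 (adjusted p = 8.48e-09) and 1.70 for SCEL (adjusted p = 3.64e-09). SPRR1B and SPRR3 rose in both lines and more in Panc10.05, and SCEL rose in Panc10.05 and fell in BxPC3. For KLK10 the value was 0.79 (adjusted p = 8.87e-05), with no call in Panc10.05 and a fall in BxPC3, and for TGM1 it was −0.98 (adjusted p = 0.00485), with a fall in Panc10.05 and no call in BxPC3. With P1-a2 they were 1.93 for SPRR3 (adjusted p = 0.000142), which rose in both lines, 0.63 for KLK10 (adjusted p = 0.000567), which fell in both, and −0.32 for S100A2 (adjusted p = 0.0174), which rose in BxPC3 and did not pass in Panc10.05. No library stood apart from the other 3 in any of the 12 groups of 4 that could be checked, which are the 4 tested members in the 3 targeted AsPC-1 groups. Line, dose, control construct and sequencing project cannot be told apart in any of these differences.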

How the results depend on the processing

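No alternative turned the sign of a change that passed as reported. KLK10 was called without sgP1E (0.68 for sgP1 against sgNC and −0.52 for sgP2 against sgP1) and had the other sign, with no call, without sgP1J (−0.02 and 0.18). Of the values of single members, 853 stayed on their side of the threshold, 16 lost their call and 26 gained one, and of the counts of members called 146 stayed within 1.5 times and 13 did not. Calls lost by leaving out a library or a guide stand in the report beside each gene, as do all calls the replicate block changed, none of which was in Panc10.05. Calls gained by leaving out 1 library were IVL for P1-a2 against P2-a8 in Panc10.05 (without P1-a2 replicate 2, adjusted p = 0.0240, edgeR), S100A2 there with P2-a8 (without P2-a8 replicate 2, 0.0361 against NC and 0.0423 against P1-a2), SCEL for P1-a2 against P2-a8 in BxPC3 (without P2-a8 replicate 2, 0.0377) and S100A2 for sgDual against sgP2 (without sgP2D replicate 1, 0.0442, or sgDual2 replicate 2, 0.0476, and without the guide sgDual2, 0.0365). SCEL with P1-a2 in BxPC3 also passed without a filter (0.00876), without TMM (0.0208) and with only both groups fitted (0.0285). Depth limits SPRR1A, SPRR2A and SPRR2D in Panc10.05, the SPRR genes and IVL in AsPC-1, and SCEL with sgNC (8 counts).

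With the replicate block, the genes called over the whole table moved by over 1.5 times: in BxPC3 from 1232 to 2886 for P2-a8 against NC and from 3963 to 5992 for P1-a2 against P2-a8, and in AsPC-1 to 127 for sgP1 (45 without it), 972 for sgP2 (581) and 1204 for sgP2 against sgP1 (731). Between guides the block gave 4616 genes and 3 members for sgP1E against sgP1J (2467 and 1 without it), 778 and 1 for sgP2D against sgP2G (288 and 0) and 558 and 1 for sgDual2 against sgDual3 (150 and 0). Without a filter the counts were 1982 for P2-a8 in BxPC3 and 81 for sgP1, 3 members for sgP1E against sgP1J, 649 genes and 1 member for sgP2D against sgP2G, 417 and 1 for sgDual2 against sgDual3, and 1 member for sgDual against sgP1 (KLK10 at adjusted p = 0.0546, edgeR). DESeq2 called 248 genes for sgP1, 1148 for sgP2 and 1272 for sgP2 against sgP1, and with only both groups fitted edgeR called 7, 1103 and 189. With sgP1E removed there were 262 genes and 1 member for sgP1 and 2764 and 1 for sgP2 against sgP1 (KLK10 in both), and with sgP1J removed 1242 for sgP1. With sgP2D removed there were 322 for sgP2 and 306 for sgP2 against sgP1, with sgP2G removed 293 and 411, and with sgDual3 removed 4320 genes and 1 member for sgDual against sgP1. Without TMM the higher share of calls was 47.9% in place of 37.8% for sgP1, 59.1% in place of 48.5% for sgP2, 51.8% in place of 61.5% for P2-a8 in BxPC3 and 48.3% in place of 53.4% for P1-a2 there.

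Leaving out each library in turn gave 2538 to 3013 genes for P1-a2 against P2-a8 in BxPC3, and 495 to 927 genes and 5 to 7 members for P2-a8 against NC there. In AsPC-1 it gave 1 to 144 genes for sgP1, 57 to 466 for sgP2, 324 to 1208 for sgP2 against sgP1, and 2775 to 5555 genes and 1 to 2 members for sgDual. The lowest gene counts came without NC replicate 2 for P2-a8 in BxPC3, without sgNC replicate 2 for sgP1 and sgP2 and without sgNC replicate 1 for sgDual. A lone library left in a group is assumed to vary like the other groups. The cause was not tested for any of these shifts.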

Other observations

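Several other squamous genes of the same 4 lists changed with no overlap between groups (adjusted p by edgeR over all genes). In BxPC3 SERPINB3, a squamous serpin, fell from a mean of 132 CPM to 23.3 with P1-a2 (log2 fold change −2.50, adjusted p = 2.16e-06). GATA3, a transcription factor of stratified epithelia, fell there by 1.21 on the log2 scale with P1-a2 (adjusted p = 1.37e-05) and rose by 1.02 in Panc10.05 with P2-a8 (adjusted p = 6.02e-08). These changes of GATA3 come from different isoforms, lines and doses, which cannot be told apart, and their difference was not tested. The change of GATA3 with the other isoform in each line is not given here.

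In AsPC-1 the desmosomal cadherins DSG3 (82.4 to 25.0 CPM, −1.72, adjusted p = 0.00901) and DSC2 (161 to 90.1 CPM, −0.84, adjusted p = 0.00138) fell with sgP2. For DSG3 no such fall was seen with sgDual. The basal squamous markers, mostly DSG3 in this line, summed to 82.7 to 83.4 CPM with sgNC and 89.7 to 121 with sgDual. With sgDual, PI3, which encodes elafin, an elastase inhibitor linked into the envelope, rose from 0.351 to 3.80 CPM (3.43, adjusted p = 6.83e-07). CDSN, which encodes corneodesmosin, rose from 0.462 to 2.36 CPM (2.34, adjusted p = 0.000471), and CEBPA fell from 34.1 to 9.38 CPM (−1.86, adjusted p = 2.76e-06).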
